A study of Mus musculus with 12 samples.

Results

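The set described here consists of 10 genes of RNA processing that are known from the inherited retinal disease retinitis pigmentosa or from photoreceptor splicing, out of 56748 genes in the table. They were chosen by gene symbol and not by a limit on any measured value, but with earlier results of these data known. The members are Prpf3, Prpf4, Prpf6, Prpf8, Prpf31, Snrnp200, Rp9, Dhx38, Msi1 and Msi2. All 10 were found in the table and all 10 passed the filter on low values in every comparison. The data came from the retinas of 2-week-old mice. All mice carried RiboTag, an allele in which Cre recombinase adds an HA tag to the ribosomal protein Rpl22, together with the rod Cre line i75-Rod-Cre, which is driven by a rod promoter. The control littermates were RiboTag;Shp2fl/+;i75-Rod-Cre (Het), so their rods also lose Shp2 from the floxed chromosome, and the knockout mice were RiboTag;Shp2fl/fl;i75-Rod-Cre (KO). Shp2 is the phosphatase encoded by Ptpn11. From each genotype, 3 libraries were made from RNA pulled down with tagged ribosomes (TRAP, here called rods) and 3 from the total retinal lysate before the pull-down (here called retina), with perfusion of cycloheximide, which halts ribosomes on mRNA. The control samples are titled wt although their listed genotype is heterozygous. Nothing read here says which mouse or how many mice a library came from, so the p-values measure only the spread between these libraries.

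The spliceosome removes introns from pre-mRNA. Its U4/U6.U5 tri-snRNP brings in the catalytic RNA already paired with a partner, and the helicase Snrnp200 (Brr2) unwinds that pair so that the spliceosome can become active. Prpf3, Prpf4 and Prpf31 sit on the U4/U6 part, whereas Prpf8, Prpf6 and Snrnp200 belong to the U5 part. These genes are used in all cells, but dominant mutations of PRPF3, PRPF4, PRPF6, PRPF8, PRPF31 and SNRNP200 in humans are known from a disease that begins in rods. Dhx38 (Prp16) is a helicase that remodels the spliceosome between the catalytic steps. Rp9 (PAP-1) has been linked to splicing through its partner Prpf3 and to a form of retinitis pigmentosa. Musashi proteins, Msi1 and Msi2, bind UAG motifs in RNA and are needed in photoreceptors for the inclusion of exons that other cells skip.

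The deposited numbers were reads multiplied by a factor for each library and rounded, with totals from 14525527 to 14527992 in retina and from 16263948 to 16265259 in rods. The factors that could be estimated placed the original depth at 9.98 to 19.23 (in units of 1e+06 reads) in 5 retina libraries and at 11.89 to 25.28 in 6 rod libraries, while the factor of Het retina replicate 3 was not clear. Rod markers (8 genes) took 14% to 16.4% of the total in rods and 4.62% to 5.77% in retina, and Müller glia markers (6 genes) took 0.00829% to 0.0166% and 0.239% to 0.361%. Lens markers (3 genes, with 0 of them absent in a whole group) took from 0.000406% to 2.86% in retina, and from 1.84e-05% to 0.0457% in rods; their part in the results was not tested. Libraries also differed in how strongly they favoured transcripts rich in GC, measured as the median log2 deviation of the tenth of genes highest in GC content minus that of the tenth lowest. In rods this trend was -0.81, -0.23 and -0.42 in Het and 0.42, 0.76 and 0.28 in KO replicates 1 to 3, and in rods trend and genotype therefore cannot be told apart. The retina trends were -0.24, 0.86 and -0.84 for Het replicates 1 to 3 and 0.01, -0.63 and 0.90 for KO replicates, which do not separate by genotype. Fold changes are therefore given also after each library's trend with GC content had been subtracted.

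The members spanned about an order of magnitude in level. On the scale of deposited value per kilobase of the longest coding transcript, the mean in Het rods was 1193 ± 13.7 for Msi2 and 1180 ± 135 for Msi1 (SD, n = 3), and the ranges of these neighbours overlapped. Prpf8 followed at 1024 ± 17.5, Snrnp200 at 632 ± 2.30 and Prpf6 at 435 ± 18.0 per kilobase, each with a range apart from its neighbours. Prpf3 (317 ± 34.1) and Prpf31 (291 ± 5.59) overlapped. At the low end, Prpf4 (127 ± 12.7) overlapped both Dhx38 (131 ± 3.81) and Rp9 (119 ± 8.20), which did not overlap each other. The median of 16906 genes of known length was 51.5 per kilobase in the same libraries. Thus Msi2, Msi1 and Prpf8 stood at the percentiles 95.7, 95.6 and 94.8 of all these genes, and Rp9, the lowest member, at 64.4.

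The order changed between groups mainly through Msi2, Dhx38 and Rp9. Msi1 had the highest mean per kilobase in KO rods (1410 ± 193), in Het retina (1168 ± 373) and in KO retina (1086 ± 238; SD, n = 3 throughout). In both retina groups the range of Msi1 overlapped that of Msi2. In KO rods the range of Msi2 lay below that of Msi1 and overlapped that of Prpf8. Dhx38 was last in Het retina, at 57.1 to 126 per kilobase, and in KO retina, at 64.8 to 134, overlapping Prpf4, and eighth in Het rods. Its range in KO rods, 197 to 266 per kilobase, no longer reached Prpf4. The spread within a group was widest for Dhx38, with a coefficient of variation of 37.2% in Het retina and 37.0% in KO retina, followed by Msi1 in Het retina at 31.9%, and narrowest for Prpf31 in KO rods at 0.24% and for Snrnp200 in Het rods at 0.363%.

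**Figure D1:**
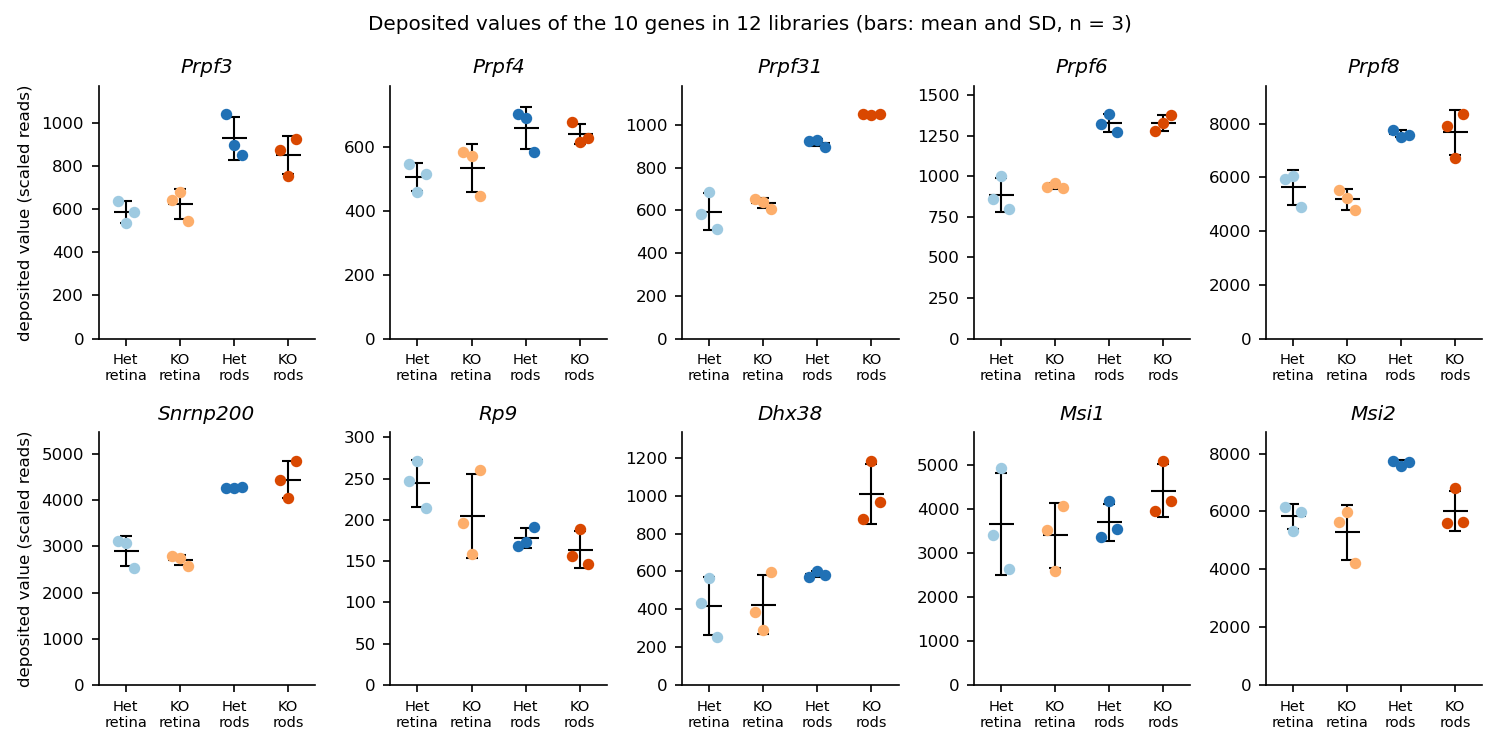
Deposited value (reads scaled per library; y axis from 0) of each of the 10 genes in the 12 libraries, by group on the x axis; points are libraries and bars are the mean and SD of 3. The rod values of Prpf3, Prpf4, Prpf31, Prpf6, Prpf8 and Snrnp200 lie above all retina values of the same genotype, Dhx38 in KO rods lies between 878 and 1186 above every other library, and Rp9 is not higher in rods.

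Het rods were compared with Het retina to ask how the members stand in ribosome-bound RNA of rods against the whole tissue. Of the 10 members, 8 were higher in rods, 0 were lower and 2, Rp9 and Msi1, did not pass the test. A gene was called at an adjusted p below 0.05 (limma, Benjamini-Hochberg over 16110 genes) and a log2 fold change beyond 0.5. Among all genes tested, 21.6% were called higher and 36.8% lower. The median log2 fold change was 0.75 over the members and -0.11 over all genes, and the 8 rod markers had a median of 1.82. All 8 rod markers were called higher, at 1.09 to 2.00, each above the highest member at 0.91. The fractions differ both in cell type and in ribosome binding, and fewer cells of a type cannot be told apart from less RNA per cell.

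The genes of the U5 proteins moved together. Prpf8, the scaffold protein around the catalytic RNA, had deposited values of 5946, 6030 and 4887 in Het retina and of 7763, 7509 and 7589 in Het rods. Snrnp200 had 3117, 3061 and 2523 in Het retina and 4265, 4250 and 4281 in Het rods. Prpf6, which bridges U5 and U4/U6, had 862, 1002 and 797 in Het retina and 1324, 1385 and 1275 in Het rods. For each of these 3 genes all rod libraries lay above all retina libraries. The share of all genes without overlap between rods and retina was not computed, so such statements are descriptions. The log2 fold changes were 0.70 for Prpf8 (SE 0.11, 95% interval 0.44 to 0.96), 0.81 for Snrnp200 (SE 0.11, 0.55 to 1.07) and 0.84 for Prpf6 (SE 0.13, 0.54 to 1.13), with adjusted p-values of 6.8e-04, 2.7e-04 and 4.8e-04 from limma. After removal of the GC trend they were 0.66, 0.75 and 0.82.

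Higher values in rods were not particular to the U5 genes, since the U4/U6 members described below were higher as well. As examples, the 250 bases before the annotated start site of the U5 genes are shown. They were taken from RefSeq on GRCm38.p6, all on the plus strand. Capitals mark matches, on either strand, to a CRX core (TAATCC), an ETS core (CCGGAAG) or an SP1 core (GGGCGG, or CCGCCC on the other strand).
Prpf8, chr11:75486527-75486776: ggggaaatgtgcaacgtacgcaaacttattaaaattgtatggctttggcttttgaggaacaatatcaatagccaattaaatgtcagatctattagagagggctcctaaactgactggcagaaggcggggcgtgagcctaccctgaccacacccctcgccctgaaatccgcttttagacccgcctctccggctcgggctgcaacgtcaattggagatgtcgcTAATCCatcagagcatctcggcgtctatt
Prpf6, chr2:181601069-181601318: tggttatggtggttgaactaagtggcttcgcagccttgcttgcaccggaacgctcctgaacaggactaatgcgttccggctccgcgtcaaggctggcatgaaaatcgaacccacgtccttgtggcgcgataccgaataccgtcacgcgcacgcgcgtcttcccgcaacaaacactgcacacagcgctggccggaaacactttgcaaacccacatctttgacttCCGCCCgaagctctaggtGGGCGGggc
Snrnp200, chr2:127208136-127208385: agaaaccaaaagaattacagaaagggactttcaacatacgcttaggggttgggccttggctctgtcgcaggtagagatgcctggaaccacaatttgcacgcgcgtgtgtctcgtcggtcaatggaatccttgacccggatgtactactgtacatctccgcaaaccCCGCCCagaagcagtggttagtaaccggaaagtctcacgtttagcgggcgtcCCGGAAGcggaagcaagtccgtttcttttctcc

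The only CRX core among the 10 windows found for 7 members was that of Prpf8, and CRX is a transcription factor of photoreceptors. It was found in 6.25% of 32851 windows of all genes. The ETS core was present in the windows of Snrnp200 and of Prpf3, against 6.91% of all windows, and the SP1 core in those of Prpf6, Snrnp200 and Msi2, against 32.7%. The site TGCTGA of NRL, the factor that specifies rods, and the TATA box TATAAA were in 0 of the 10 windows, against 16.1% and 12.4% of all. These are matches of letters and not measured binding. Windows of Prpf3, Prpf4 and Prpf31 were also in the table, and those of Msi1, Dhx38 and Rp9 were not analysed here.

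The genes of the U4/U6 proteins were higher in rods as well. Prpf31, which binds the U4 RNA, had deposited values of 584, 684 and 514 in Het retina and of 923, 929 and 896 in Het rods. Prpf3 ranged from 535 to 639 in Het retina and from 850 to 1042 in Het rods. Prpf4, the partner of Prpf3, ranged from 460 to 547 in Het retina and from 585 to 705 in Het rods. Again the groups of each gene did not overlap, which is likewise a description. The log2 fold changes were 0.88 for Prpf31 (SE 0.14, 95% interval 0.57 to 1.20), 0.91 for Prpf3 (SE 0.13, 0.62 to 1.20) and 0.63 for Prpf4 (SE 0.13, 0.32 to 0.93), with adjusted p-values of 5.6e-04, 2.7e-04 and 0.0030 from limma. Once the GC trend was removed, Prpf31 and Prpf3 were still called at 0.82 and 0.75, while Prpf4 fell under the fold limit at 0.43 (adjusted p = 0.0052). Without Het retina replicate 2 the log2 fold change of Prpf4 was 0.45. Exons of Prpf31 overlap those of Gm15927 on the opposite strand over 18.1% of their bases, and since the strand of counting is not given in the sources used here, reads of the pair may be mixed.

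Within libraries, the proportions of some partner genes also differed between fractions. The ratio of Prpf8 to Snrnp200 deposited values was 1.76 ± 0.0531 in the 6 rod libraries and 1.93 ± 0.0489 in the 6 retina libraries (SD, n = 6). The rod values of 1.67 to 1.82 lay below the retina values of 1.84 to 1.98. The two-sided exact permutation test gave p = 0.00216, the smallest it can give with 6 against 6, and 0.0324 after Benjamini-Hochberg adjustment over 30 comparisons of 6 ratios. The ratio of Prpf3 to Prpf4 was 1.37 ± 0.111 in rods and 1.16 ± 0.0422 in retina (SD, n = 6), with the same exact permutation p. Its highest retina value, 1.221, and its lowest rod value, 1.222, nearly met. Within a genotype, Prpf8 to Snrnp200 and Prpf3 to Prpf4 were each separated in the same direction. The exact permutation p was 0.1, the smallest that 3 against 3 allow. The U5 ratio of Prpf6 to Prpf8 did not differ, at 0.175 in 6 rod and 0.170 in 6 retina libraries (adjusted exact permutation p = 0.808). Neither did Prpf31 to Prpf8, Dhx38 to Prpf8 and Msi1 to Msi2 (adjusted exact permutation p = 0.214, 0.304 and 0.828). These ratios do not depend on the scaling of a library. The gene pairs were chosen after their values had been seen. The permutation tests shuffled libraries freely and did not keep same-numbered rod and retina libraries together, although those of Het mice deviated together. Their p-values are therefore descriptions.

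Dhx38 was higher in Het rods by 0.81 (SE 0.26, 95% interval 0.22 to 1.40, adjusted p = 0.024 from limma). Its deposited values were 433, 564 and 255 in Het retina and 573, 605 and 579 in Het rods, so the highest retina library came close to the rods. The call was lost without any of these 5 libraries: Het retina replicate 1 (adjusted p = 0.061), Het retina replicate 3 (log2 fold change 0.45), and Het rods replicate 1, 2 or 3 (adjusted p = 0.057, 0.068 and 0.064 from limma). It was called at 1.11 after removal of the GC trend.

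Rp9 did not pass the test. It had deposited values of 247, 272 and 215 in Het retina and of 169, 173 and 192 in Het rods. All rod values lay below all retina values before scaling. Relative to scaling by library totals, which were higher in rods, TMM raised rods by 0.41 log2 over retina. The fitted log2 fold change was -0.20 (SE 0.17, 95% interval -0.59 to 0.19, adjusted p = 0.33 from limma), and 0.01 with the GC trend removed. Exons of Rp9 overlap 9530077C05Rik on the opposite strand over 6.64% of their bases.

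Of the Musashi genes, Msi2 was higher in rods. Its deposited values were 6155, 5324 and 5996 in Het retina and 7757, 7583 and 7698 in Het rods, without overlap. The log2 fold change was 0.65 (SE 0.10, 95% interval 0.42 to 0.88, adjusted p = 4.7e-04 from limma). Msi1 had 3418, 4930 and 2632 in Het retina and 3373, 4177 and 3540 in Het rods. The retina values of Msi1 enclosed the rod values, and the log2 fold change was 0.31 (SE 0.22, -0.19 to 0.81, adjusted p = 0.25 from limma). These genes lie at opposite ends of the members in transcript GC content, 42.3% for Msi2 and 57.9% for Msi1. Removing the GC trend exchanged the calls, with Msi1 higher at 0.72 (SE 0.08, adjusted p = 2.3e-05) and Msi2 under the fold limit at 0.38 (SE 0.12, adjusted p = 0.015). Msi2 was also under the limit, at 0.48, without Het retina replicate 2.

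The calls against retina depended on how rods and retina were scaled. With totals as the only scaling, the median over all genes was -0.51, 1168 genes were higher and 7399 lower, and 1 member, Rp9, was called, as lower at -0.61 (SE 0.17, adjusted p = 0.013 from limma). The other members then ranged from -0.11 for Msi1 to 0.50 for Prpf3, and all but Msi1 kept their sign.

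KO rods were compared with KO retina as the same contrast in KO mice, using libraries that the Het comparison did not use. There, 9 members were higher, 0 lower and Rp9 did not pass the test, against 25.8% of 16121 genes called higher and 36.5% called lower. The median log2 fold change was 0.85 over the members and -0.02 over all genes. Dhx38 had deposited values of 387, 289 and 596 in KO retina and of 878, 1186 and 967 in KO rods. This was the largest difference of a member, 1.67 on the log2 scale (SE 0.26, 95% interval 1.09 to 2.26, adjusted p = 4.3e-04 from limma). Prpf31 was higher by 1.10 (SE 0.10), Snrnp200 by 1.09 (SE 0.11) and Prpf8 by 0.94 (SE 0.12). Prpf6, Prpf3 and Prpf4 were higher by 0.87, 0.82 and 0.64.

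Msi1 was higher in KO rods than in KO retina by 0.77 (SE 0.18, adjusted p = 0.0054 from limma) and Msi2 by 0.57 (SE 0.14, adjusted p = 0.0069). The deposited values of Msi1 were 3527, 2602 and 4078 in KO retina and 3962, 5103 and 4189 in KO rods, and those of Msi2 were 5645, 5979 and 4204 and 5587, 6813 and 5622. Before scaling, the groups overlapped for both genes. Relative to scaling by library totals, TMM raised rods by 0.54 log2 here. Leaving out a library ended the call of Msi1 for KO retina replicate 1 (adjusted p = 0.062) and replicate 2 (0.41 on the log2 scale), and that of Msi2 for KO retina replicate 1, 2 or 3 (0.45, 0.49 and 0.26) and KO rods replicate 2 (0.49). Prpf4 was lost without KO retina replicate 3 (0.36). The same 9 members were called with the GC trend removed, among them Msi1 at 0.74 and Msi2 at 0.58. Of all 15880 genes in that fit, 4291 were called higher and 5820 lower. Rp9 had a log2 fold change of 0.07 (95% interval -0.44 to 0.58). With library totals only, 3 members were called, Prpf31, Snrnp200 and Dhx38, all as higher. Among all genes, 1144 were then higher and 7846 lower.

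**Figure D2:**
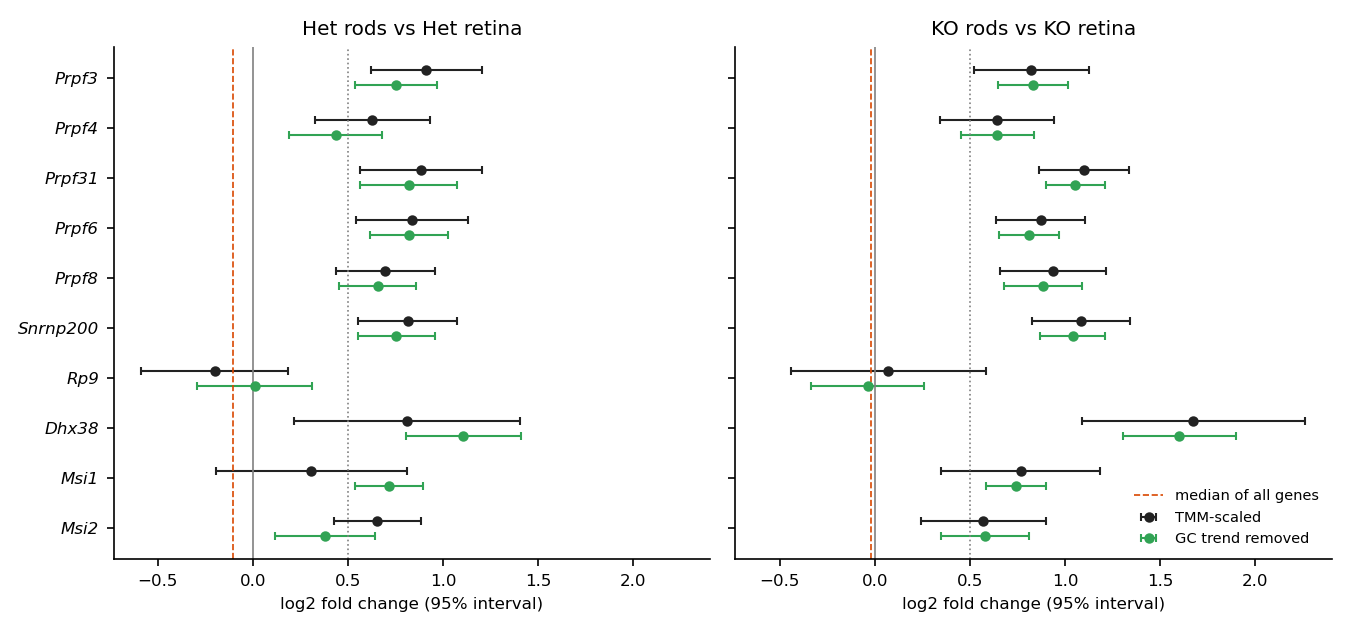
Log2 fold change with its 95% interval (limma) of each gene, rods against retina, in Het mice (left) and KO mice (right); black is the TMM-scaled fit, green the fit with the GC trend removed, the dashed line the median of all genes and the dotted line the limit of 0.5. In Het mice the Musashi genes exchange places between the fits, with Msi1 at 0.31 and 0.72 and Msi2 at 0.65 and 0.38, and Rp9 is at -0.20 in Het and 0.07 in KO mice in the TMM-scaled fits.

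The genes of other spliceosome proteins give the setting for these members, and all values are of RNA. Of 21 tri-snRNP partners, 9 were higher in Het rods and 0 lower, and the median was 0.54 on the log2 scale. The highest were Eftud2, the U5 GTPase (0.87, SE 0.16), and Snrnp40 of U5 (0.87, SE 0.13), and the lowest were Snu13 (0.06, SE 0.12) and the kinase Prpf4b (-0.16, SE 0.15), which did not pass the test. Of 22 genes of other snRNP proteins, 12 were higher and 1 lower (median 0.68). Sf3a3 (1.17, SE 0.11) and Sf3b2 (1.01, SE 0.15) of the U2 snRNP were the highest, Snrpa of U1 was at -0.21 (SE 0.28), and Snrnp70, the U1 protein, fell by 2.76 (SE 0.19, adjusted p = 4.2e-06 from limma). Of 23 helicases and step factors of the spliceosome, 20 were higher and 0 lower (median 0.82), led by Crnkl1 (1.20, SE 0.14) and Aqr (1.20, SE 0.11), with Ddx39b (0.19, SE 0.22) and Isy1 (-0.11, SE 0.16) lowest. The background of 21.6% higher applies to each count.

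Regulators of neuronal and photoreceptor exons included genes far lower in rods. Of 22 genes, 3 were higher and 11 lower in Het rods, against 21.6% and 36.8% of all genes, and the median was -1.01 on the log2 scale. Mbnl2 (0.94, SE 0.11), Khdrbs1 or Sam68 (0.91, SE 0.11) and Ptbp2 (0.59) were higher. Rbfox2 (-5.10, SE 0.20) and Nova1 (-4.77, SE 0.26), regulators of neuronal exons, were the lowest. Srrm4, which promotes neuronal microexons, was at -1.43 and called lower. In contrast, Srrm3 of the same list was at -0.09 and not called, and at 0.75 and called higher with the GC trend removed. All 5 genes known to carry Msi1-dependent photoreceptor exons were higher. Ttc8, of the BBSome of cilia, was higher by 1.29 (SE 0.12) and Slc17a7, the vesicular glutamate transporter of photoreceptors, by 1.16 (SE 0.19). Cep290 of the connecting cilium was higher by 0.82 (SE 0.17) and Cc2d2a by 0.53 (SE 0.16). The values count whole genes, so the inclusion of an exon was not measured. Of 2 further RNA-linked retinal disease genes, both were higher, the spliceosomal protein Cwc27 by 1.15 (SE 0.16) and Trnt1, which adds the CCA end to tRNA, by 0.68 (SE 0.18). After removal of the GC trend, Cc2d2a (0.37), Trnt1 (0.47) and Ptbp2 (0.32) were under the fold limit, which left 4 of the 5 genes with Msi1-dependent exons called. Of the 22 exon regulators, 3 were then higher and 12 lower. Of all 15879 genes in that fit, 3445 were higher and 5990 lower.

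**Figure D3:**
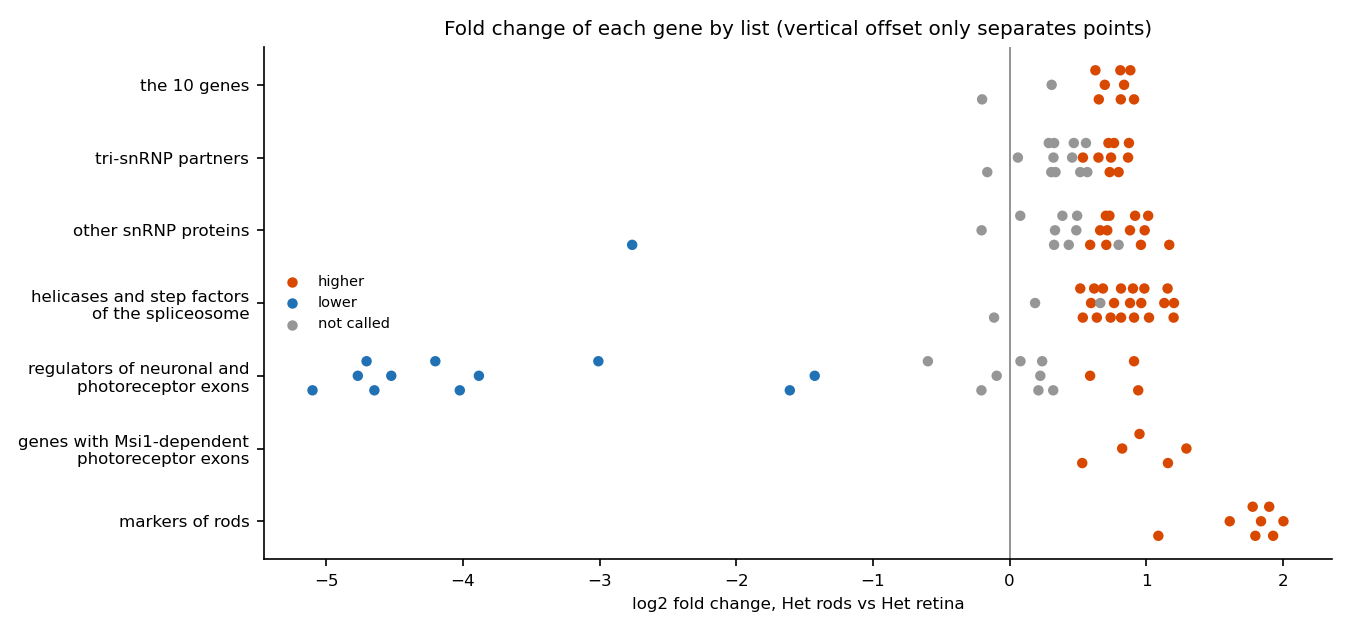
Log2 fold change, Het rods against Het retina (x axis), of every tested gene of 6 lists and of the 10 genes; each point is a gene coloured by its call, and the vertical offset only separates points. Most genes of the core spliceosome lists lie between 0 and 1.2, overlapping the lowest rod marker at 1.09 but not the other rod markers, with Snrnp70 apart at -2.76, whereas exon regulators extend to -5.10.

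KO rods were compared with Het rods to ask whether the members differ between the genotypes. The targeted gene Ptpn11 was at 2511, 2439 and 2431 (deposited values) in the Het rod libraries against 1735, 2139 and 1971 in the KO rod libraries, a log2 fold change of -0.26 (SE 0.09, adjusted p = 0.064 from limma), and the floxed exons were not measured apart from the rest of the gene. Of the 10 members, 1 was higher and 0 were lower, against 11.2% of 13055 genes called higher and 1.91% called lower. The member was Dhx38. The Het rod libraries held 573, 605 and 579 and the KO rod libraries 878, 1186 and 967, which did not overlap. The log2 fold change was 0.86 (SE 0.12, 95% interval 0.59 to 1.12, adjusted p = 0.0025 from limma), and it was called without each of the 6 libraries in turn, at 0.71 to 0.96. With the GC trend removed it was 0.42 (SE 0.10, adjusted p = 0.019), under the fold limit, and in a fit of all 12 libraries it was 0.77 with an adjusted p of 0.20. This comparison shares its libraries with the rod and retina comparisons above.

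Prpf31 showed a smaller difference. The Het rod libraries held 923, 929 and 896 and the KO rod libraries 1050, 1045 and 1048, again without overlap. The log2 fold change was 0.28 (SE 0.08, 95% interval 0.10 to 0.45, adjusted p = 0.029 from limma), below the fold limit, and 0.30 (adjusted p = 0.026) with the GC trend removed. Counting by adjusted p alone, 2 members, Prpf31 and Dhx38, were higher, against 15.7% of all genes, and the same 2 were higher after removal of the GC trend, against 6.32%. The adjusted p of Prpf31 reached 0.092 when a library was left out and 0.31 over all alternatives.

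The Musashi genes moved in opposite directions without passing the test. Msi1 was at 3373, 4177 and 3540 in the Het libraries against 3962, 5103 and 4189 in the KO libraries. Msi2 was at 7757, 7583 and 7698 in the Het libraries against 5587, 6813 and 5622 in the KO libraries. The deposited values of Msi1 overlapped, whereas all KO values of Msi2 lay below the Het values. The log2 fold change was 0.34 for Msi1 (SE 0.12, 95% interval 0.07 to 0.60, adjusted p = 0.064) and -0.28 for Msi2 (SE 0.10, -0.49 to -0.07, adjusted p = 0.054). With the GC trend removed, Msi1 was at -0.18 (adjusted p = 0.13) and Msi2 at 0.04 (adjusted p = 0.88). Both signs turned.

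Within each library, the ratio of Msi1 to Msi2 was 0.435, 0.551 and 0.460 for Het rods against 0.709, 0.749 and 0.745 for KO rods. The groups did not overlap, and the two-sided exact permutation test gave p = 0.1, the smallest possible with 3 against 3. The retina ratios were 0.555, 0.926 and 0.439 for Het against 0.625, 0.435 and 0.970 for KO libraries, and these groups overlapped fully. The retina libraries with the highest ratio, Het replicate 2 and KO replicate 3, were also those with the highest GC trend, 0.86 and 0.90. The lowest ratios in retina, 0.439 and 0.435, were in the libraries with the lowest trends, -0.84 and -0.63. The same retina libraries, Het replicate 2 and KO replicate 3, had the highest Dhx38 values of their groups, 564 and 596.

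**Figure D4:**
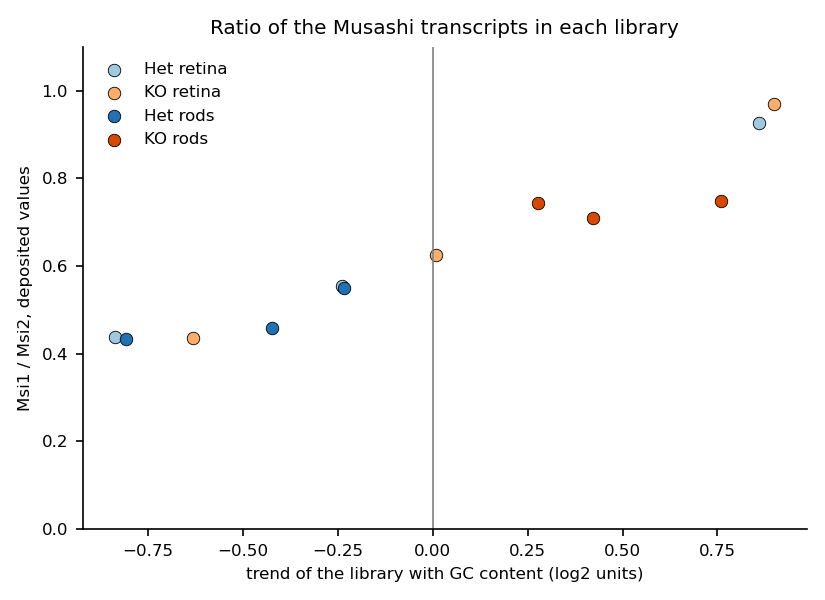
Ratio of Msi1 to Msi2 deposited values (y axis) against the trend of the library with GC content (x axis, log2 units, computed within rods or within retina) for the 12 libraries, coloured by group. The ratio is higher where the trend is higher in retina, from 0.435 to 0.970 with Het and KO libraries mixed, while in rods the Het libraries lie at negative and the KO libraries at positive trends.

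The other members did not pass the test between genotypes in rods. Log2 fold changes were 0.14 for Snrnp200 (95% interval -0.02 to 0.30), 0.09 for Prpf8 (-0.08 to 0.25) and 0.09 for Prpf6 (-0.09 to 0.26). They were 0.05 for Prpf4 (-0.17 to 0.26), -0.04 for Prpf3 (-0.26 to 0.17) and -0.04 for Rp9 (-0.38 to 0.30). With the GC trend removed, Rp9 was at -0.41 (95% interval -0.70 to -0.13, adjusted p = 0.072) and Prpf4 at 0.27 (0.07 to 0.47, adjusted p = 0.092). After TMM scaling, 4 members (Prpf31, Snrnp200, Dhx38 and Msi1) had all KO rod values above all Het rod values, against 23.7% of all genes, and 1 member (Msi2) had them all below, against 20.4%. The median over the members was 0.09 and that over all genes -0.01.

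The other spliceosome lists are read against the same shares of all genes, 11.2% higher and 1.91% lower. Of 21 tri-snRNP partners, 3 were higher and 0 lower, and these were Lsm4 (0.98, SE 0.20), Sart3, which rejoins U4 and U6 (0.79, SE 0.13), and Sart1 (0.74). Zmat2 (-0.36, SE 0.08) and Lsm3 (-0.44, SE 0.16) were the lowest. Of 22 genes of other snRNP proteins, 6 were higher, led by Snrpa (1.09, SE 0.16) and Sf3b5 (1.01, SE 0.23). Snrpe was lower at -0.57 (SE 0.12), with Snrpb2 next at -0.32 (SE 0.14). Of 23 helicases and step factors, Xab2 (0.72, SE 0.11) and Dhx16 (0.66, SE 0.10) were higher, and Dhx15 (-0.25) and Cdc40 (-0.28) were lowest. With the GC trend removed the higher calls of these lists numbered 1, 2 and 0, with 0 lower. Of all 12907 genes in that fit, 273 were called higher and 110 lower.

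Among the exon regulators, 1 of 20 tested genes was higher, the repressor Ptbp1 (0.62, SE 0.15, adjusted p = 0.013 from limma). With the GC trend removed Ptbp1 was not called, at 0.46, and Srsf11 was called instead, at 0.59. Rbfox2, at 0.69 (SE 0.35), did not pass, and Mbnl1 (-0.27) and Ptbp3 (-0.41) were the lowest. None of the 5 genes with Msi1-dependent exons was called, with Slc17a7 at 0.34 and Cacna2d4 at 0.23 at the upper end and Cep290 (-0.13) and Ttc8 (-0.16) at the lower. Cwc27 and Trnt1 were at -0.24 and -0.25, also without a call.

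**Figure D5:**
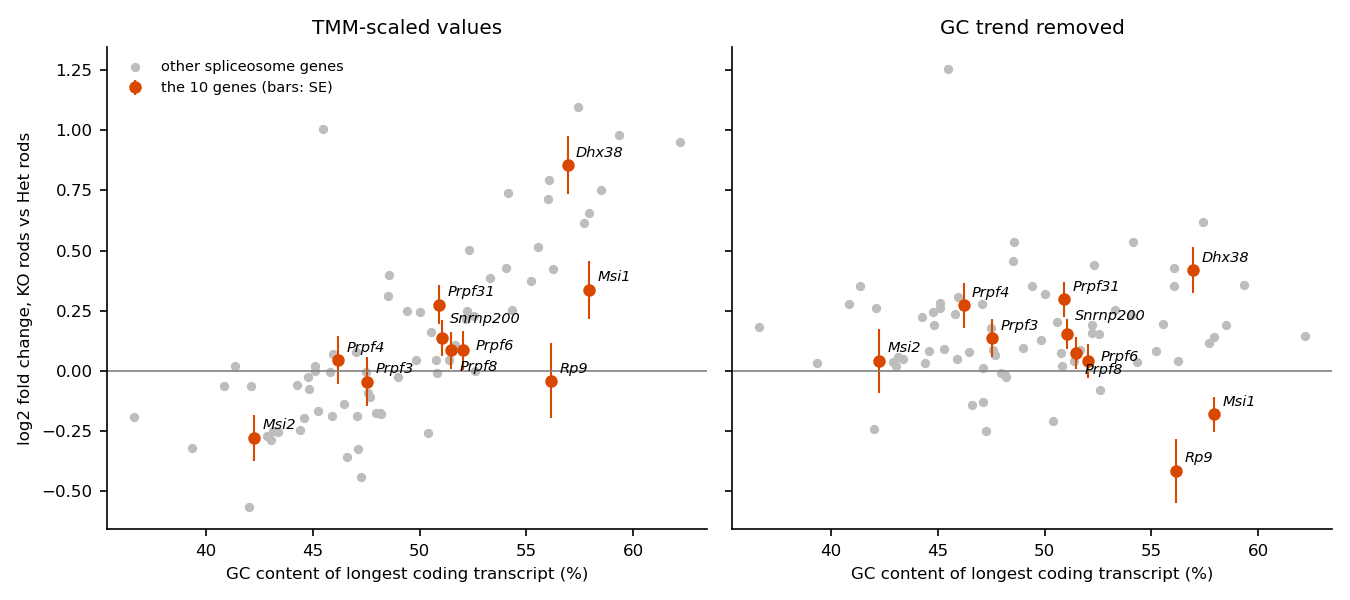
Log2 fold change, KO against Het rods (y axis), by GC content of the longest coding transcript (x axis, percent), before (left) and after (right) removal of the GC trend; orange points are the 10 genes with SE bars and grey points genes of the 3 spliceosome lists. On the left Dhx38 (56.9% GC) is at 0.86 and Msi2 (42.3%) at -0.28, and on the right they are at 0.42 and 0.04, with Prpf31 at 0.28 and 0.30.

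KO retina was compared with Het retina for the same genes in the whole tissue. None of the members passed the test, and neither did any other gene, with 0% of 16863 genes called higher and 0% lower by limma, and 140 genes at an unadjusted p below 0.05. Intervals were wide for the members with scattered libraries. The log2 fold change of Dhx38 was 0.04 (95% interval -0.80 to 0.87), of Msi1 -0.08 (-0.70 to 0.54) and of Rp9 -0.27 (-0.82 to 0.28). For the other members it lay between -0.15 for Msi2 and 0.11 for Prpf31. Rp9 ranged from 215 to 272 in Het retina and had deposited values of 196, 159 and 260 in KO retina, which overlapped.

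Whether the difference between genotypes was larger in rods than in retina was tested over all 12 libraries. Of 17192 genes, 0% were called in either direction by limma, 601 had an unadjusted p below 0.05, and 0 members were called. The difference was 0.71 for Dhx38 (95% interval -0.15 to 1.58, unadjusted p = 0.096, adjusted p = 0.80), 0.31 for Msi1 (-0.35 to 0.97) and -0.23 for Msi2 (-0.61 to 0.15). For Prpf31 it was 0.07 (-0.27 to 0.40). The KO difference of Dhx38 in rods is thus not shown to be particular to rods.

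Across the 12 libraries, the genes most like a member in its pattern were found by Pearson's correlation of log2 TMM-scaled values among 10391 genes with a mean above 100. Prpf8 was closest to its U5 partner Snrnp200 (0.996), then to Polr2a, the catalytic subunit of RNA polymerase II (0.996), and to Podxl (0.991). Msi1 was closest to Rapgef1 (0.994), Gpsm3 (0.991) and Usp21 (0.986), and Msi2 to Adal (0.989), Rab28 (0.984) and Stx3 (0.984). The points are libraries that share fraction, genotype and the GC trend, so these values are descriptions.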

How the data were processed

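RNA was sequenced after SMART-Seq V4 conversion of polyadenylated RNA. The submitters' processing notes name CASAVA 1.8.2, HISAT2, DESeq2, edgeR and GRCm39 without roles. The deposited values are a signal: per the values, the authors scaled the reads by a factor particular to the library, then rounded. They were not treated as counts, and no count model was run. Groups come from titles and genotypes, and 0 columns of other samples were present.

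The members and lists were chosen with earlier results of these data known. Genes reaching 10 (scaled to the median total) in 3 or more libraries and 15 in sum were scaled by TMM (trims 0.3 and 0.05), raised by a pseudocount of 2 and put on the log2 scale. limma 3.58.1 in R 4.3.3 (trend, robust) was fitted to all such genes of the groups compared, with 95% intervals from its moderated statistic. Fold changes are on the log2(value + 2) scale, which understates changes of low genes. Deposited values are printed per library. Over scaling by library totals, TMM added 0.41 and 0.54 log2 for rods over retina in Het and KO mice, and 0.08 for KO over Het rods. Rod totals were higher than retina totals, so the printed values of rods were raised over retina by less than 0.41 and 0.54.

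GC content, lengths and overlaps come from GENCODE on GRCm38, and GC content was known for 98.3% to 98.9% of genes. The GC trend of each library was a lowess curve (span 0.3, 3 iterations) of deviations from the gene mean. Named list genes are those with the 2 highest and 2 lowest fold changes in Het rods against Het retina and in KO against Het rods. Sart1, Srsf11, Ptbp2, Srrm3 and Srrm4 were added after their values were seen. Same-numbered Het rod and Het retina libraries deviated together (correlations 0.468, 0.413 and 0.251, against a mean of -0.19 for other pairs). The numbers come from the titles. Same-numbered KO and Het retina libraries, which differ in genotype, correlated at 0.404, -0.585 and -0.14. Such correlations therefore do not settle which libraries share a mouse. Python 3.11.15 with NumPy 2.4.6 and matplotlib 3.10.9 was used for depth factors and figures. The fits between 2 groups and the depth factors were tested on simulated data. Alternatives were library totals, RLE scaling, pseudocounts of 0.5 and 8, no filter, each library left out, a fit of all 12 libraries, the replicate block, GC removal with and without it, adjusted p alone, and removal of rod-depleted genes.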

Additional observations from a re-analysis of the deposited data

How the results depend on the processing

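The number of members called moved beyond 1.5 times in these settings. With library totals only it was 1 in place of 8 for Het rods against Het retina and 3 in place of 9 for KO rods against KO retina. For KO against Het rods, where 1 member was called, it was 0 with the GC trend removed, 0 with the GC trend removed and the replicate block, 0 in a fit of all 12 libraries, 2 by adjusted p alone, and 2 by adjusted p alone with the GC trend removed, a setting added after seeing the data. In that comparison all genes called numbered 1460 higher and 250 lower in the main fit, 273 and 110 with the GC trend removed, 1202 and 584 with library totals, and 0 and 0 in the fit of all 12 libraries. The trends in rods follow genotype, so GC content and genotype cannot be told apart there.

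The numbers of members under RLE scaling, pseudocounts of 0.5 and 8 and no filter on low values were 8, 9 and 1 in the comparisons above, as in the main fits, and 1 after removal of rod-depleted genes for KO against Het rods. With the replicate block, which treats same-numbered libraries as pairs, they were 8, 9 and 1, with the same members called. For KO rods against KO retina, same-numbered libraries correlated at 0.334, -0.0141 and 0.182, against a mean of -0.0835 for other pairs. Whether the numbers pair the KO libraries was therefore not clear. Between genotypes, the numbers did not pair the samples. Leaving out a library gave 6 to 8 members in Het rods against Het retina, 7 to 9 in KO rods against KO retina and 1 in KO against Het rods. KO against Het retina and the interaction gave 0 members in all alternatives. Longest transcripts of any kind gave the same levels per kilobase. The lowest deposited value of a member was 147, for Rp9 in KO rods, and its wide intervals limit what can be said of it.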
